A study of Mus musculus with 4 samples.

Results

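The 7 genes described here encode receptors that steer T cells through lymphoid organs and into tissues: the chemokine receptors Cxcr3, Cxcr4, Cxcr5, Cxcr6 and Ccr9, and the related receptors Gpr15 and Gpr183. Their members are all probe sets to which the authors' deposited fold change tables give one of these symbols, where Gpr183 appears under its older name Ebi2. This gave 11 probe sets of the 660 that carry a symbol, and 7 genes of 507. T cells of the CD4 and the CD8 lineage were taken from spleen and lymph nodes; the mice, 6 to 8 weeks old, were either wild-type or Foxo1-deficient (labelled Foxo1KO). Each combination of genotype and lineage was hybridised to 1 array, 4 in all, and the series asks which genes Foxo1, a forkhead transcription factor, controls in T cells. No group has a replicate, so each difference between 2 arrays is a description without a test. The sources used here do not give the way Foxo1 was inactivated, the cells in which it was lost, or the number of mice behind an RNA.

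Chemokine receptors are 7-transmembrane receptors coupled to inhibitory G proteins, and they move a cell up a gradient of their ligand. Naive T cells circulate between blood and lymphoid organs, whereas activated and memory T cells acquire receptors for inflamed tissue, mucosa or B cell follicles. Gpr183 works in the same way but senses an oxysterol in place of a chemokine. Foxo1 is known for maintaining the homing programme of naive T cells.

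The regions upstream of 4 of these genes are shown because they carry the main contrasts: Ccr9 and Cxcr6 lie close together on chromosome 9, and Cxcr3 and Gpr183 are the members whose window holds a short forkhead core. Each run is the 250 bases before the annotated gene start, 5′ to 3′ on the gene's strand, from RefSeq (GRCm38.p6). Capitals mark the 6-letter core TAAACA or its reverse complement TGTTTA.
Ccr9 (chr9:123766961-123767210, + strand): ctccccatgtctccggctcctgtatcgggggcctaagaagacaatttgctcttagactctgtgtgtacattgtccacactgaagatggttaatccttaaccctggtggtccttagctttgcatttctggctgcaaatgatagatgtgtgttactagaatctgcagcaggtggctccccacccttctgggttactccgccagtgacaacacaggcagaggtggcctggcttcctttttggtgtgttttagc
Cxcr6 (chr9:123806227-123806476, + strand): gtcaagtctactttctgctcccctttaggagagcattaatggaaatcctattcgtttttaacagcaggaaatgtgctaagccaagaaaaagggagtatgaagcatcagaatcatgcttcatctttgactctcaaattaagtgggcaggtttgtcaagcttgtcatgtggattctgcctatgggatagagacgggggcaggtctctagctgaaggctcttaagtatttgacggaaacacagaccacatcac
Cxcr3 (chrX:101734148-101734397, - strand): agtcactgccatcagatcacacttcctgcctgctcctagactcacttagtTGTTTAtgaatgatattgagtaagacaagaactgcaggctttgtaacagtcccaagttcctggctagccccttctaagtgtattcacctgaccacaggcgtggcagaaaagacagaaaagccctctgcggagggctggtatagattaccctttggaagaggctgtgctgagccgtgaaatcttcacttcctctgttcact
Gpr183 (chr14:121965194-121965443, - strand): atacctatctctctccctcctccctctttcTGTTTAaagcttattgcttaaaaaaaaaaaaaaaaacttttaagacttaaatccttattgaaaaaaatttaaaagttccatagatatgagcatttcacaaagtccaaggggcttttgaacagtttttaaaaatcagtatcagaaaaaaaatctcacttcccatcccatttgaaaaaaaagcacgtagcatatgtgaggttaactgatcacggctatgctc
The full forkhead sequence GTAAACA was looked for on both strands in the windows of 6 members, Cxcr5 having no entry in the table used, and was found in none of them. It is present in 3.17% of all 32851 windows of this length, and GTAAACAA, which contains it, in 1.07%. The shorter core TAAACA, which both contain and which was chosen after the sequences were seen, occurs in 12.0% of all windows and in 2 of the 6, beginning 200 bases before the start of Cxcr3 and 220 bases before that of Gpr183. A match of letters is not a binding site, and the absence of a match concerns these windows only.

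Foxo1 itself, the targeted gene, was lower wherever the label says it is missing. Its 4 probe sets had intensities of 606 to 8204 in wild-type CD4 and 61.3 to 1107 in Foxo1-deficient CD4, and of 389 to 6902 and 45.1 to 1836 in the CD8 arrays. Array medians were 69.0 to 77.6, and the arrays correlated at r = 0.93 to 0.94 across probe sets, which are not independent replicates. Intensities below 74.9, the median of all values, were treated as unmeasured. Where 1 of 2 arrays was below this floor the fold is a bound ("at least"). Where both were, no fold is given. By the Foxo1 probe sets above the floor in all arrays, 4.91%, 5.52% and 13.5% of the wild-type signal was left in CD4. In CD8, 18.1%, 17.4% and 26.6% was left by the same probe sets. The dimmest Foxo1 probe set was below the floor in both Foxo1-deficient arrays. Genotype differences in CD4 and CD8 were thus compared at an unequal loss of Foxo1 signal. Whether this affects those comparisons was not tested. None of the 10 T cell markers looked for, Cd3e, Cd4 and Cd8a among them, carries a symbol in the tables used, so the labelled cell types were not checked by them.

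**Figure D1:**
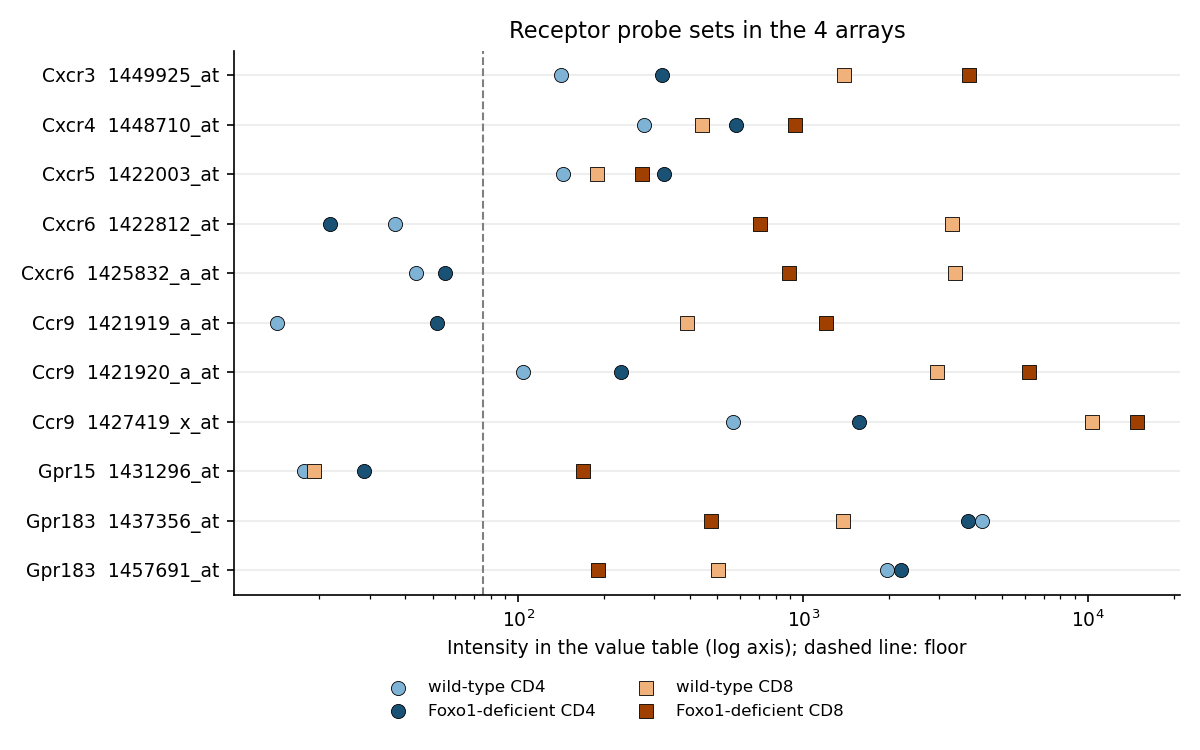
Intensity of each receptor probe set (rows) in the 4 arrays on a log axis, with circles for CD4 and squares for CD8, light for wild-type and dark for Foxo1-deficient; the dashed line is the floor of 74.9. Both Cxcr6 probe sets lie below the floor in both CD4 arrays, all Ccr9 and Cxcr3 points are to the right in CD8, and Gpr183 is to the left in CD8.

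Without Foxo1, CD4 T cells had higher signal for Ccr9, Cxcr3, Cxcr4 and Cxcr5, by 2.11-fold to 2.77-fold in the brightest probe set of each gene. Gpr183 stayed within 1.12-fold in either probe set, and Cxcr6 and Gpr15 were below the floor in both CD4 arrays. In CD8 T cells, by the brightest probe sets, Cxcr3, Cxcr4 and Gpr15 were at least 2-fold higher without Foxo1, whereas Cxcr6 and Gpr183 were at least 2-fold lower. Ccr9 was 1.44-fold higher in CD8 by its brightest probe set, and 3.09-fold and 2.11-fold higher by its others. Counted by probe set, 5 of the 7 that could be compared in CD4 were at least 2-fold apart, all of them higher, against 2.76% of all 24070 probe sets compared in either direction. In CD8, 9 of 11 were at least 2-fold apart, 5 higher and 4 lower, against 3.51% of 23803. Of these, Gpr15 could be compared only through the Foxo1-deficient array, so its direction was fixed in advance. Higher by at least 2-fold in both cell types were 3 receptor probe sets (Cxcr3, Cxcr4 and Ccr9 1421920_a_at), against 0.467% of the 22498 compared in both. Over all probe sets in CD8, 351 were higher and 485 lower as deposited, and 561 and 330 after each array was centred on its median, so the balance of directions across the array depends on scaling. The median log2 difference over the receptor probe sets was 1.14 in CD4 and 0.54 in CD8, beside 0.02 and 0.00 over all probe sets. These shares cannot be read as enrichment, because a probe set has a symbol only if the authors listed it for a genotype difference. Of those with a symbol, 26.6% passed 2-fold upwards and 25.4% downwards in CD4, and 29.8% and 33.4% in CD8.

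**Figure D2:**
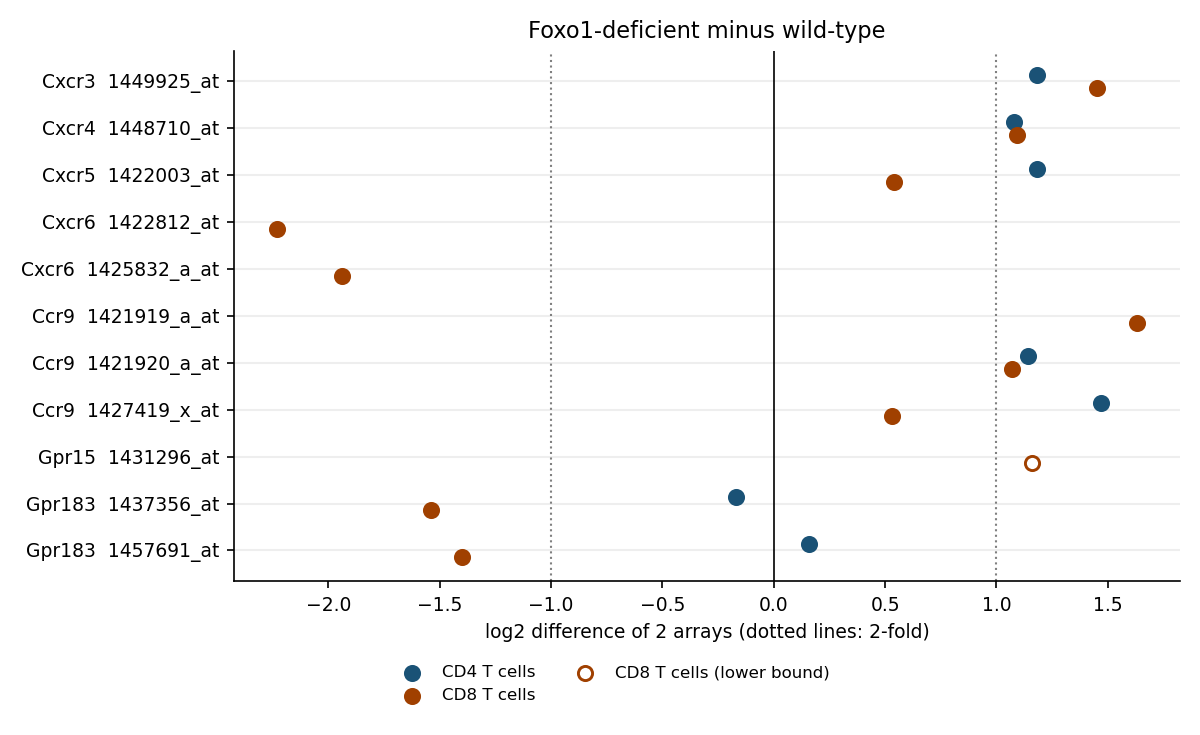
Log2 difference of Foxo1-deficient minus wild-type intensity for each receptor probe set, in CD4 (blue) and CD8 (brown) T cells; the open point is a lower bound and the dotted lines mark 2-fold. Points right of 0 are higher without Foxo1; those of Cxcr6 (-2.23 and -1.94) and Gpr183 (-1.54 and -1.40) in CD8 lie beyond the left line, and no CD4 point does.

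Of the receptors for mucosal homing, Ccr9 binds the chemokine CCL25 and directs lymphocytes to the small intestine and thymocytes within the thymus. It is represented by 3 probe sets. The brightest, 1427419_x_at, had an intensity of 567 in wild-type CD4, 1568 in Foxo1-deficient CD4, 10314 in wild-type CD8 and 14853 in Foxo1-deficient CD8. Its suffix marks a probe set with probes that can match other transcripts. The second, 1421920_a_at, had 104, 230, 2956 and 6227 in the same order. The third, 1421919_a_at, was below the floor in both CD4 arrays (14.2 and 51.8) and had 390 and 1205 in CD8. All 3 thus ordered the CD8 arrays above the CD4 arrays, with the Foxo1-deficient array the higher of the pair wherever it was measured.

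The size of the genotype difference in Ccr9 depended on the probe set. In CD4 it was 2.77-fold (1427419_x_at) and 2.21-fold (1421920_a_at), with a mean log2 difference of 1.30 ± 0.23 (SD, 2 probe sets, same arrays). In CD8 it was 3.09-fold, 2.11-fold and 1.44-fold, with a mean of 1.08 ± 0.55 (SD over 3 probe sets). The smallest of these came from the brightest probe set, which the authors did not list in CD8. Across all named genes with several measured probe sets, the pooled SD between probe sets of a gene was 0.39 in CD4 and 0.38 in CD8 on the log2 scale, and it is the only technical spread these data give.

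Gpr15, a receptor that in the mouse directs T cells to the large intestine, was measured in a single array. Its probe set had an intensity of 168 in Foxo1-deficient CD8, and of 17.6, 28.6 and 19.1 in wild-type CD4, Foxo1-deficient CD4 and wild-type CD8, all below the floor. It was therefore at least 2.24-fold higher in the Foxo1-deficient than in the wild-type CD8 array. In the authors' deposited table the 2 intensities were 97.0 and 34.3, a ratio of 2.83. This gene rests on 1 dim value, and with the floor at the 75th percentile no value remains.

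Among the receptors for inflamed tissue, Cxcr3 binds the interferon-induced chemokines CXCL9, CXCL10 and CXCL11 and is a known target of the transcription factor T-bet. Its intensity was 141 in wild-type CD4, 319 in Foxo1-deficient CD4, 1395 in wild-type CD8 and 3823 in Foxo1-deficient CD8. Every CD8 value exceeded every CD4 value, and the Foxo1-deficient array was the higher in both cell types. The difference was 2.27-fold in CD4, where the authors' deposited table does not list it, and 2.74-fold in CD8. Tbx21, which encodes T-bet, was ordered in the same way, with 8.65, 110, 165 and 1295, the first being below the floor.

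Cxcr6, the receptor for the membrane-bound chemokine CXCL16, is typical of tissue-resident and effector T cells and of NKT cells. Its probe set 1425832_a_at had 43.8 in wild-type CD4 and 55.3 in Foxo1-deficient CD4, both below the floor, and 3416 in wild-type CD8 and 891 in Foxo1-deficient CD8. The other, 1422812_at, had 36.7, 21.7, 3320 and 706. Both placed the gene among the bright transcripts of the wild-type CD8 array and left it unmeasured in CD4. Without Foxo1 the CD8 signal was 3.83-fold and 4.70-fold lower, a mean log2 difference of -2.09 ± 0.21 (SD over 2 probe sets), and these were the 67th and 40th lowest of the 23803 differences. The authors' deposited table gives 3.71-fold and 3.85-fold. None of the 10 genes of the NK and NKT cell list carries a symbol. Klrd1, a receptor gene of NK cells and effector CD8 T cells that was counted in the memory or effector list, had 1327 in wild-type CD4, 95.8 in Foxo1-deficient CD4, 12752 in wild-type CD8 and 2875 in Foxo1-deficient CD8. Like Cxcr6 it was brightest in wild-type CD8 and lower there without Foxo1, by 4.44-fold. Unlike Cxcr6 it was measured in wild-type CD4, and was 13.8-fold lower there without Foxo1. Of the 12 named genes of its list, 7 were at least 2-fold higher in CD8 without Foxo1 and only 1, Klrd1, was lower. Of probe sets with a symbol, 29.8% were higher and 33.4% lower by that margin. Gzmb, 1 of the 7, was below the floor in wild-type CD8, so its direction was fixed in advance. The part of NK or NKT cells in the Cxcr6 values was not tested.

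The receptors that place cells within lymphoid organs are Cxcr4, Cxcr5 and Gpr183. Cxcr4 binds CXCL12 and retains cells in bone marrow and other stromal niches. Its intensity was 276 in wild-type CD4, 583 in Foxo1-deficient CD4, 440 in wild-type CD8 and 935 in Foxo1-deficient CD8. The genotype difference was nearly the same in both cell types, 2.11-fold in CD4 and 2.13-fold in CD8. The authors' deposited tables list it at 2.05-fold and 2.36-fold, and the first is the member value closest to the 2-fold limit of those tables. Probe sets just outside the limit are not listed and carry no symbol.

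Cxcr5, which binds CXCL13 and brings B cells and follicular helper T cells into B cell follicles, had an intensity of 143 in wild-type CD4, 324 in Foxo1-deficient CD4, 188 in wild-type CD8 and 272 in Foxo1-deficient CD8. The 4 values span less than those of any other member measured in all arrays. It was 2.27-fold higher without Foxo1 in CD4, and 1.45-fold higher in CD8, where the authors did not list it. Of 5 other follicular helper genes with a symbol (of 8 looked for), Bcl6 (2.15-fold) and Pdcd1 (2.23-fold) passed 2-fold upwards in CD4 and none passed it downwards. Sh2d1a (1.83-fold), Icos (1.25-fold) and Maf (1.17-fold) were lower in CD4 without Foxo1. The median log2 difference of the 5 in CD4 was -0.23, so they did not rise together. In CD8, 2 of these 5 were at least 2-fold higher and 2 lower. Maf, 1 of the 2 higher, was below the floor in wild-type CD8, so its direction was fixed in advance. Of probe sets with a symbol, 26.6% were at least 2-fold higher and 25.4% lower in CD4, and 29.8% and 33.4% in CD8.

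Gpr183, also called Ebi2, guides activated B cells and T helper cells to the outer follicle and to the border of B and T cell zones. Its probe set 1437356_at had 4251 in wild-type CD4, 3787 in Foxo1-deficient CD4, 1385 in wild-type CD8 and 476 in Foxo1-deficient CD8. The other, 1457691_at, had 1976, 2202, 504 and 191. Both placed the CD4 pair close together at the top and the Foxo1-deficient CD8 array at the bottom. In CD4 the genotype difference was -0.17 and 0.16 on the log2 scale, under the spread between probe sets. In CD8 Gpr183 was 2.91-fold and 2.63-fold lower without Foxo1, a mean log2 difference of -1.47 ± 0.10 (SD over 2 probe sets). In the authors' deposited table these were 3.69-fold and 2.89-fold.

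The comparison of CD8 with CD4 T cells was not used to list the probe sets, although it shares its arrays with the genotype comparisons. In the wild-type arrays Cxcr6 was at least 45.6-fold and at least 44.3-fold higher in CD8, the 7th and 8th largest of 24371 differences. Ccr9 was 28.4-fold, 18.2-fold and at least 5.20-fold higher in CD8 by its 3 probe sets, and Cxcr3 was 9.91-fold higher. Gpr183 was 3.07-fold and 3.92-fold lower in CD8. Cxcr4 (1.60-fold higher) and Cxcr5 (1.32-fold higher) were under 2-fold. By probe set, 8 of 10 were at least 2-fold apart, 6 higher and 2 lower in CD8, against 4.51% of all probe sets compared. Of those with a symbol, 19.8% were higher and 13.6% lower by that margin. Both Cxcr6 probe sets and Ccr9 1421919_a_at were below the floor in CD4. They could be compared only through CD8, so their direction was fixed in advance.

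In the Foxo1-deficient arrays the same receptors separated the cell types, by different amounts. Cxcr6 was at least 11.9-fold and at least 9.43-fold higher in CD8. Ccr9 was 27.1-fold, 9.47-fold and at least 16.1-fold higher, and Cxcr3 12.0-fold. Gpr183 was 7.96-fold and 11.5-fold lower in CD8, the 17th and 6th lowest of 23637 differences. Gpr15 was at least 2.24-fold higher, and Cxcr5 turned to 1.19-fold lower in CD8. By probe set, 9 of 11 were at least 2-fold apart, 7 higher and 2 lower in CD8, against 4.87% of all probe sets compared. Of those with a symbol, 18.6% were higher and 22.1% lower by that margin. Both Cxcr6 probe sets, Gpr15 and the Ccr9 probe set given as a bound were below the floor in Foxo1-deficient CD4. They could be compared only through CD8, so their direction was fixed in advance. Over all probe sets 455 were higher and 696 lower as deposited, 622 and 508 after median centring, and 539 and 541 after quantile normalization.

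**Figure D3:**
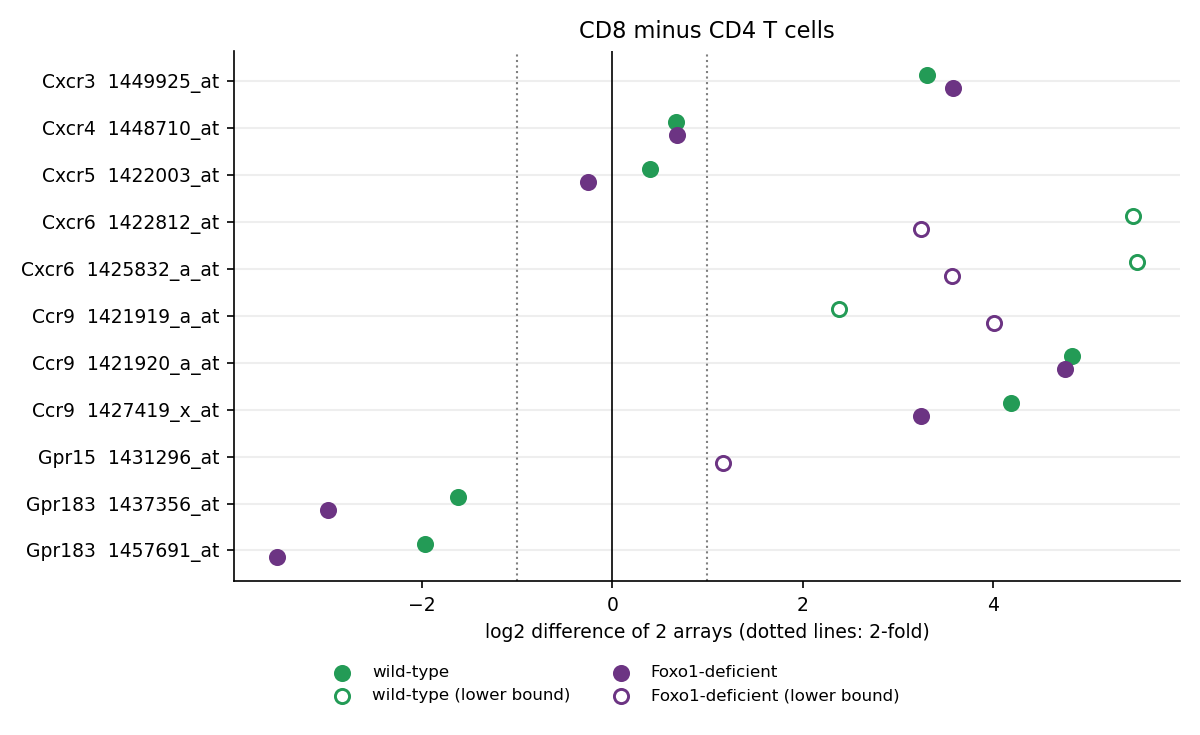
Log2 difference of CD8 minus CD4 intensity for each receptor probe set in wild-type (green) and Foxo1-deficient (purple) T cells; open points are lower bounds and dotted lines mark 2-fold. Cxcr6, Ccr9 and Cxcr3 lie far to the right in both genotypes, Gpr183 lies to the left and further left in Foxo1-deficient cells (-2.99 and -3.52), and Cxcr4 and Cxcr5 lie within 2-fold.

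A limma fit over all 4 arrays with additive terms for genotype and lineage leaves 1 residual degree of freedom. Its error mixes array noise and any interaction, and it gives no measure of the spread between mice. Whether any such spread enters it is not known, since the mice behind each RNA are not given. For the CD8 minus CD4 term, Ccr9 had a log2 difference of 4.79 ± 0.15 (SE, 1421920_a_at), Cxcr3 of 3.45 ± 0.17 and Gpr183 of -2.31 ± 0.42 and -2.75 ± 0.47. The limma adjusted p was 0.169 for the first 2 and 0.292 and 0.288 for Gpr183, so none of these passed 0.05. None of the 25375 probe sets passed, the smallest adjusted p being 0.169, and at an unadjusted p under 0.05 it called 9 of the 11 receptor probe sets against 14.3% of all. When the variance prior was let depend on mean intensity and made robust, 5 of the 11 passed (4.97% of all), among them Ccr9 1421920_a_at (adjusted p = 4.74e-07), Cxcr3 (adjusted p = 1e-05) and Cxcr6 1422812_at (adjusted p = 0.000304). Gpr183 did not pass there (adjusted p = 0.109 and 0.0803). The fit uses values without a floor, so for both Cxcr6 probe sets and Ccr9 1421919_a_at it rests on CD4 intensities that are unmeasured by the rule above. These entered the fit only through the CD8 arrays, where they are bright, so their calls for this term were built in and support nothing. Of the 5, Ccr9 1421920_a_at, Ccr9 1427419_x_at and Cxcr3 were above the floor in all arrays.

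The genotype term of the same fit covers the contrast by which the authors listed these probe sets, so it is given as a description. Cxcr3 had a shared log2 difference of 1.32 ± 0.17 (SE), Ccr9 of 1.11 ± 0.15 (1421920_a_at) and Cxcr4 of 1.08 ± 0.15. In limma's moderated test none of the 11 passed an adjusted p of 0.05, with 0.468 for each of these 3, and 7 had an unadjusted p under 0.05 where 9.40% of all probe sets did. The robust prior called 4 (1.95% of all), Cxcr3, Cxcr4 and Ccr9 by 2 probe sets, which is no independent support since the authors listed them by this contrast. One of these, Ccr9 1421919_a_at, was below the floor in both CD4 arrays, and its difference went from 1.75 to 0.81 (limma unadjusted p = 0.125) with values floored before the fit. For Gpr183 the first fit, without the robust prior, gave -0.85 ± 0.42 and -0.62 ± 0.47, the average of a difference near 0 in CD4 and one of -1.54 and -1.40 in CD8.

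Whether genotype differences differ between cell types cannot be tested with 1 array a group. In size, the CD8 minus CD4 genotype difference was 0.01 for Cxcr4, 0.27 for Cxcr3 and -0.07 for Ccr9 1421920_a_at on the log2 scale. It was -0.94 for Ccr9 1427419_x_at and -0.65 for Cxcr5. It was largest for Gpr183, -1.38 and -1.55. These were 2 of 7 receptor probe sets with genotype differences at least 2-fold apart between the cell types, against 5.24% of the 22498 probe sets compared in both. Both are of 1 gene, which has a symbol because the authors listed it in CD8 and not in CD4. Such a listing favours unequal differences, so the share cannot be read as enrichment. Cxcr6 and Gpr15 have no CD4 difference to set against.

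**Figure D4:**
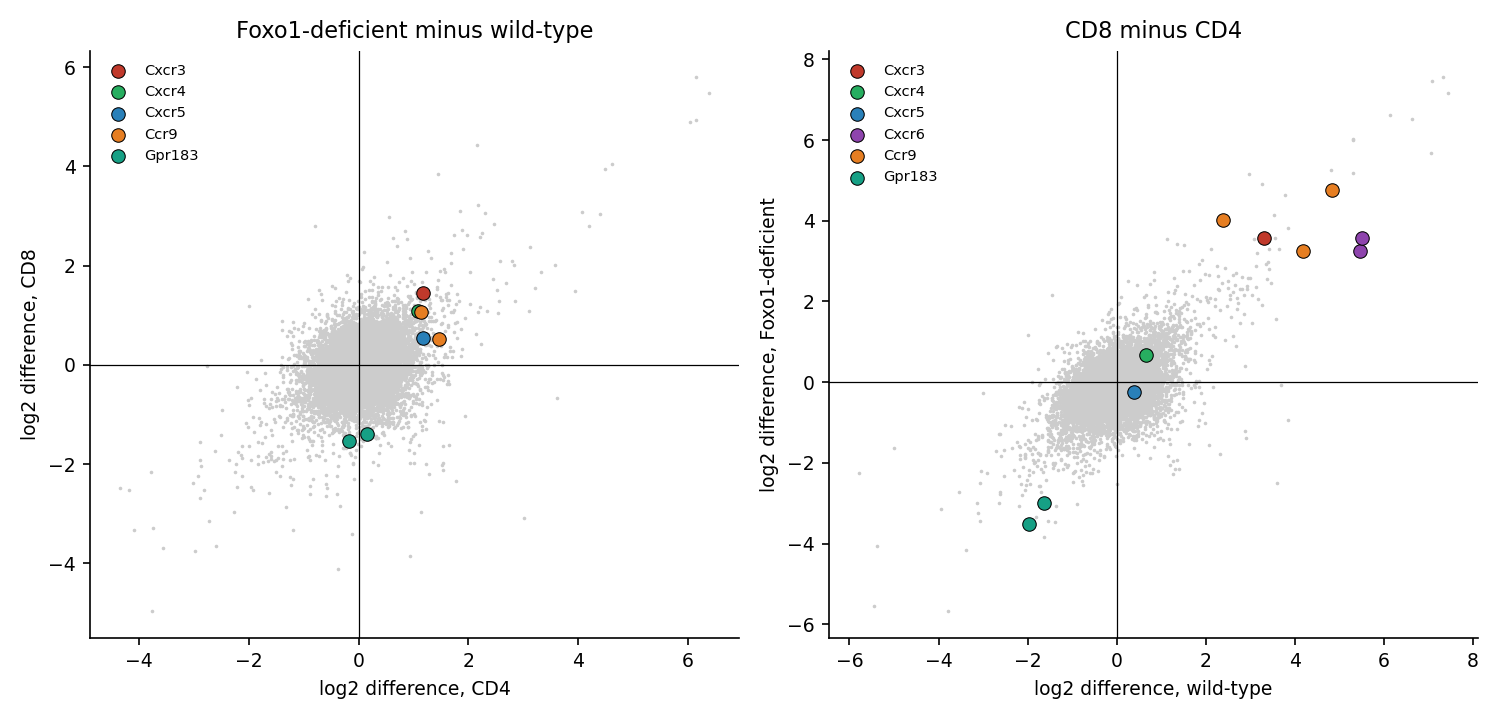
All probe sets that could be compared (grey points) with the receptors in colour. Left, log2 genotype difference in CD4 (x) against CD8 (y), where Cxcr3, Cxcr4, Cxcr5 and Ccr9 lie in the upper right and Gpr183 sits near 0 on x and at -1.40 and -1.54 on y; right, log2 CD8 minus CD4 difference in wild-type (x) against Foxo1-deficient (y), where Ccr9, Cxcr3 and Cxcr6 lie in the upper right and Gpr183 in the lower left. Axes within a panel share no array.

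Ccr9 and Cxcr6 are near neighbours on chromosome 9. In RefSeq's order of protein-coding genes (GRCm38.p6) Fyco1 stands between them, and Cxcr6 lies within the span of Fyco1. Both receptors were far brighter in CD8 than in CD4, and without Foxo1 they differed in opposite directions in CD8: Ccr9 was higher by all 3 probe sets and Cxcr6 lower by both. Xcr1 and Ccr1, the next chemokine receptor genes along the chromosome, carry no symbol in the tables used and were not analysed here.

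The named genes with the nearest pattern were taken by Euclidean distance between log2 profiles over the 4 arrays, each centred on its own mean and floored, among 411 candidates (412 for Cxcr6 and Gpr15). Ccr9 was nearest to Nedd4, a ubiquitin ligase gene (distance 0.53), then to Cxcr3 (0.74) and Ddc (0.88), where the median distance was 4.01. Cxcr3 was nearest to Ccr9 (0.74) and Nedd4 (0.75). Gpr183 was nearest to Ampd3, an AMP deaminase gene (0.73), Klhl5 (0.73) and Tmem154 (0.79), against a median of 2.88. The nearest to Cxcr5 was Atad5, which acts in DNA replication (0.04), followed by the ribonucleotide reductase gene Rrm2 (0.22) and the proliferation marker Mki67 (0.30). Cxcr4 was nearest to Cdca5 (0.18), Fignl1 (0.19) and Cd83 (0.20). Cxcr6 had no close neighbour, the nearest being Nedd4 at 2.09, and Gpr15, measured in 1 array, was nearest to Agfg1 (0.25). With 4 arrays such likeness is a description of shape only.

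**Figure D5:**
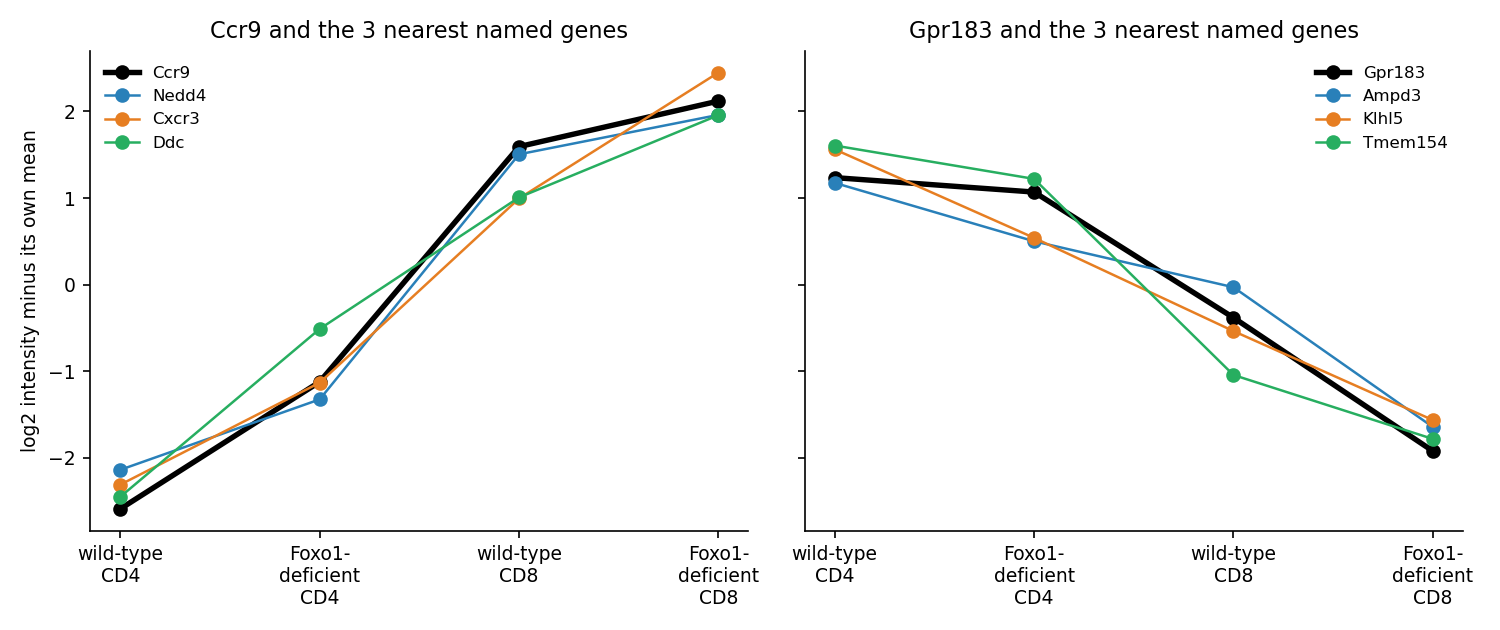
Log2 intensity of Ccr9 (left) and Gpr183 (right), as black lines, with the 3 named genes of most similar pattern, over the 4 arrays (x axis) and centred on each gene's own mean (y axis, floored values). The Ccr9 group is lowest in wild-type CD4 and highest in Foxo1-deficient CD8, and the Gpr183 group runs the other way; the lines join arrays and imply no order.

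Other genes of migration could be followed only where they carry a symbol. A probe set has one only if the authors listed it for a genotype difference, so counts over gene lists cannot be read as enrichment. Of probe sets with a symbol, 26.6% were at least 2-fold higher and 25.4% lower without Foxo1 in CD4, and 29.8% and 33.4% in CD8. Over all probe sets compared, 2.76% in CD4 and 3.51% in CD8 were that far apart in either direction. Of 23 chemokine receptor genes looked for, the 5 above were the only ones named, and of 19 lipid and other migration receptors there was 1 besides Gpr15 and Gpr183. This was Ptger2, a prostaglandin E2 receptor gene, with 205 in wild-type CD4, 53.2 in Foxo1-deficient CD4, 151 in wild-type CD8 and 56.5 in Foxo1-deficient CD8, at least 2.73-fold and at least 2.02-fold lower without Foxo1. Of 22 chemokine and ligand-enzyme genes 3 were named, and all 3 were at least 2-fold higher in CD8 without Foxo1. Cxcl10, a ligand of Cxcr3, had 93.3, 80.1, 99.3 and 349 in the same order and was 3.51-fold higher there. Ccl5, a chemokine of effector T cells, had 27.3, 296, 176 and 1075, and Xcl1, the ligand of Xcr1, had 11.5, 78.9, 57.6 and 294. Xcl1 was below the floor in wild-type CD8. Its CD8 difference is thus at least 3.92-fold, with a direction fixed in advance.

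Of 29 genes of receptor signalling and migration machinery 3 were named, and all 3 were at least 2-fold higher without Foxo1 in both cell types. As above, a symbol is given only where the authors listed a genotype difference, so these counts show no enrichment. Rgs1, which shortens signalling by chemokine receptors, had 172, 554, 150 and 455, a 3.23-fold difference in CD4 and a 3.03-fold one in CD8. Rap1gap2, a GTPase activator for the adhesion regulator Rap, had 96.8, 688, 287 and 1162, and Arhgap20 had 113, 1056, 22.5 and 220. Arhgap20 was below the floor in wild-type CD8. Its CD8 difference is thus at least 2.94-fold, with a direction fixed in advance. Of 23 adhesion genes 5 were named, with none at least 2-fold higher and 2 lower in CD4, and 1 higher and 2 lower in CD8. The furthest apart were Itga4 (5.45-fold lower in CD8), Itga6 (4.65-fold lower in CD8), St3gal6 (2.67-fold lower in CD4) and Cd44 (2.02-fold higher in CD8). Of 21 regulators of homing genes 11 were named, with 2 at least 2-fold higher and 3 lower in CD4, and 4 higher and 2 lower in CD8. Maf, 1 of the 4, was below the floor in wild-type CD8, so its direction was fixed in advance. After Tbx21, given above, and Foxo1, the furthest apart were Ahr, the aryl hydrocarbon receptor gene (5.83-fold higher in CD8), and Il7r, the interleukin-7 receptor gene (5.72-fold lower in CD8).

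Markers of other cells and states also differed between genotypes. Those named were likewise listed by the authors for a genotype difference, so their counts cannot be read as enrichment. Of 17 B and plasma cell genes 6 were named, all immunoglobulin genes or Jchain. Without Foxo1 5 of them passed 2-fold upwards in CD4 and all 6 in CD8. Of probe sets with a symbol, 26.6% did so in CD4 and 29.8% in CD8. Igh and Igh-VJ558 in CD4 and Ighm in CD8 were below the floor in wild-type, so their direction was fixed in advance. The summed intensity of the 6 genes was 741 in wild-type CD4, 6014 in Foxo1-deficient CD4, 999 in wild-type CD8 and 9787 in Foxo1-deficient CD8. B cells use Cxcr4, Cxcr5 and Gpr183 as well, and the defining genes Cd79a and Ms4a1 carry no symbol here. Of 15 myeloid and dendritic cell genes 3 were named, with sums of 1240, 2729, 823 and 3183 in the same order. Of 7 regulatory T cell genes 4 were named, with sums of 1303, 2499, 1525 and 4283 that follow Ikzf2 (318, 1292, 1068 and 3896). Foxp3, the defining gene, had 47.7, 152, 71.6 and 51.0 and was above the floor in Foxo1-deficient CD4 alone. Without Foxo1, Nrp1 (347, 59.3, 102 and 42.6) was below the floor in both lineages, at least 4.63-fold under the wild-type for CD4 cells. Tnfrsf4 was higher by 1.68-fold in CD4 cells and by 1.04-fold in CD8 cells. Of 7 erythroid and platelet genes 1 was named, with 152, 68.6, 120 and 51.2.

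Among T cell states, 12 of 16 memory or effector genes were named, with sums of 24377, 34092, 44247 and 66833, and 6 were at least 2-fold higher and 1 lower in CD4, with 7 and 1 in CD8. Ccl5, Gzmb and Nkg7 in CD4 and Gzmb in CD8 were below the floor in wild-type, so their direction was fixed in advance. For the naive list, 5 of 10 were named, with sums of 44375, 22519, 41683 and 9977, and 4 were at least 2-fold lower in each cell type. These genes too carry a symbol only through a listed genotype difference. Of all probe sets with a symbol, 26.6% were at least 2-fold higher and 25.4% lower in CD4, and 29.8% and 33.4% in CD8. The part of all these genes in the receptor differences was not tested, and in bulk RNA a change in the share of cells of a type cannot be told apart from a change in RNA per cell.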

How the data were processed

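Biotin-labelled cRNA, made from 0.5 ug of total RNA for each of 4 samples, was read on Affymetrix arrays, per the labels' protocols. In the deposited value table every probe set has a single linear intensity for each array; its background correction and scaling are not given in the sources used here. Each fold change table deposited by the authors holds, per the file headers, a ratio (Foxo1-deficient over wild-type) and both raw intensities; every row repeats the probe identifier, so its values stand 1 column to the right of the headers. These intensities differ from those of the value table, but all 395 (CD4) and 496 (CD8) listed probe sets had the same direction in both.

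After 64 control probe sets were left out, 45037 were analysed. Symbols came from the authors' tables (660 probe sets, 1.47% of those analysed), and 56 were updated through RefSeq synonyms. Values below 74.9 were set to it and put on the log2 scale with no further scaling. For each gene the brightest named probe set (mean floored log2 value) stands for it where 1 value is given. Differences of at least 2-fold were counted. The additive fit used limma 3.58.1 in R 4.3.3 on log2 values without a floor, for the 25375 probe sets that reached the floor in some array, two-sided, with Benjamini-Hochberg adjustment over all of them; it was tested on simulated data, as was the counting. Other steps ran in Python 3.11.15 (matplotlib 3.10.9, numpy 2.4.6, pandas 2.3.3). The number of arrays limits the precision.

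The members, the gene lists and the rule for likeness (the 3 nearest named genes for each member) were chosen with earlier results of these data known. From each pathway list at most 4 genes, those with the largest differences, are named. From the marker lists the follicular helper genes, Klrd1 and the regulatory T cell genes were picked after their values were seen. Alternatives were floors at the 25th and 75th percentile, the mean over probe sets of a gene, quantile normalization, median centring, leaving out probe sets that match several transcripts, thresholds of 1.5-fold and 3-fold, the authors' intensities, and for limma another prior, other filters, floored values, no second factor and an adjusted p of 0.1.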

Additional observations from a re-analysis of the deposited data

Results flagged for a closer look

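For Gpr183 probe set 1457691_at the genotype difference had opposite signs in the 2 cell types, a log2 difference of 0.16 in CD4 and -1.40 in CD8, which are -1.55 apart. Its other probe set, 1437356_at, had -0.17 in CD4 and -1.54 in CD8. The difference between the cell types was not tested, since each rests on 1 pair of arrays.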

How the results depend on the processing

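Of 34 recounts of receptor genes at least 2-fold apart, 29 stayed within 1.5 times the reported count. The recounts with the authors' intensities were among these. Those intensities cover only probe sets at least 2-fold apart, so every receptor they hold passed by construction, which shows no stability. With the floor at the 75th percentile (470.6), the count fell from 4 to 1 between genotypes in CD4, from 5 to 3 in CD8, and from 5 to 3 between CD8 and CD4 in Foxo1-deficient cells; fewer receptors are measured above that floor. With a 3-fold threshold 0 receptors remained between genotypes in CD4 and 1, Cxcr6, in CD8. By the mean of its probe sets Ccr9 also passed 2-fold in CD8, giving 6. The limma genotype term called 0 receptor probe sets, but 4 with the mean-dependent and robust prior and 2 with the filter at the 75th percentile. The cell type term called 0, but 5 with that prior, 2 with values floored before the fit, and 8 of 9 with the filter, Gpr183 included. Over all probe sets, floored values gave 44 higher and 13 lower cell type calls of 25375. The filter gave 234 higher and 221 lower cell type calls of 12525, and 48 higher and 45 lower genotype calls. With this filter both Cxcr6 probe sets, Ccr9 1421919_a_at, Ccr9 1421920_a_at and Cxcr3 entered the fit only through CD8 arrays. Their cell type calls were thus built in and support nothing. Ccr9 1421919_a_at entered through Foxo1-deficient CD8 alone, so its genotype call with the filter was built in as well. The cause of the changes in these counts was not tested. In these fits 4 arrays leave 1 residual degree of freedom. The wild-type CD8 array's median exceeded that of the Foxo1-deficient one by 0.16 on the log2 scale (difference -0.16), yet all 39 receptor differences kept their direction and their side of 2-fold under median centring and quantile normalization. Of 159 recomputed probe set differences none reversed among those of at least 2-fold and 21 moved by more than the spread between probe sets, 20 of them under another floor; Gpr183 1457691_at went from -1.40 to -0.1 between genotypes in CD8 with the floor at the 75th percentile. No paired analysis was possible because each group holds 1 sample, so no replicate numbers are shared; the additive limma fit instead takes lineage as the other factor of the genotype term.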
